A study of Mus musculus with 7 samples.

Results

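The ETS transcription factor genes Erg, Fli1, Etv6, Ets1 and Elf1 were examined for accessible chromatin in bone marrow stem and progenitor cells of adult mice. Their members were all ATAC-Seq peaks with a summit inside one of the 5 gene bodies (GENCODE vM21, mm10) or within 100 kb of it, counting peaks that share start and end once. These were 286, 299 and 274 of 141709, 147698 and 142276 peaks in the 3 Ctrl libraries. In the 4 WTAkita libraries they were 268, 280, 294 and 284 of 137963, 140881, 151552 and 147979 peaks. Aligned across libraries, the peaks formed 266 of 137340 consensus sites, of which 211 held a summit in all 7 libraries. Every library came from 50000 sorted LSK cells (Lin- c-Kit+ Sca-1+) of wild-type C57/BL6 adult offspring. Ctrl offspring were born to normal pregnancies and WTAkita offspring to diabetic dams that carried the Ins2 Akita mutation, which the offspring did not inherit. In both groups the dams, Akita carriers or their wild-type littermates, ate a high-fat diet from before breeding, and the offspring ate regular chow. Cells were sorted from pools of bone marrow. The number of mice behind a library was not stated in the sources used here, and p-values therefore reflect variation from library to library only.

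ETS factors bind DNA through a shared domain that recognises a GGAA core. Erg and Fli1 are close relatives needed to maintain hematopoietic stem cells, and with Tal1, Lyl1, Lmo2, Gata2 and Runx1 they form the heptad of factors that occupy stem cell enhancers together. Etv6 is a repressor that adult stem cells need in the marrow, Ets1 acts mainly in lymphoid and endothelial development, and Elf1 in blood and T cell gene control. Erg and Fli1 have known stem cell enhancers in their introns. In ATAC-Seq a transposase cuts open DNA, and the deposited fold enrichment of a peak is its summit pileup divided by the background that the peak caller expected there in the same library.

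The libraries differed in their signal. The median fold enrichment of a whole peak list was lowest in WTAkita replicates 1 and 2 and Ctrl replicate 1 (5.25 to 5.79) and was 6.32 to 6.59 in the other 4, so levels are given as deposited and differences after quantile normalization. The estimated number of tags was 37600000 to 53100000 per library. A peak lay within 1000 bp of a start site in all 7 libraries for 10 of 10 LSK and stem cell markers, among them Kit, Flt3, Cd34 and Meis1. It did so for 2 of 5 T cell, 2 of 4 B cell, 2 of 4 erythroid, 2 of 5 mature myeloid, 3 of 4 megakaryocyte and 5 of 5 endothelial markers. Cd8a, Ms4a1, Slc4a1, S100a9 and Ppbp had no such peak in any library. The summed level of each list overlapped between the groups, for example 57.4 to 61.1 in Ctrl and 51.1 to 65.0 in WTAkita for the endothelial list. The part of these cell types in the sites described here was not tested, and a lower share of a cell type and a lower signal per cell cannot be told apart in pooled cells.

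All 5 loci held more accessible sites per 100 kb than the median protein-coding gene. Fli1 held 15.3 sites per 100 kb in all 7 libraries and Etv6 14.7, more than 89.8% and 87.9% of all protein-coding genes. Erg followed with 11.7, Elf1 with 11.3 and Ets1 with 9.95, against a median of 7.70 over all genes. In the same order they stood above 73.8%, 71.6% and 64.1% of genes. The median site had a fold enrichment of 5.90 to 7.97 at Etv6, Fli1, Erg and Ets1, below the 8.08 of all 111316 sites, and of 8.66 at Elf1, above it. Over the whole series, sites within 1000 bp of a protein-coding start had a median of 10.9 and the other sites 7.58. The part of start sites in these levels was not tested. The mean level over the Etv6 sites was above that of only 1.51% of 18352 loci, that of Fli1 above 9.79%, Erg above 15.9%, Ets1 above 20.9% and Elf1 above 46.9%. Over the 5 loci together the median site was at 6.69. Of the 211 sites, 131 had their summit in an intron of a protein-coding gene, 48 between genes and 18 in introns of noncoding genes, and 21 (9.95%) lay within 1000 bp of a protein-coding gene's start, compared with 19.7% of all sites. The position of the summit was stable between libraries, with a median range of 34.0 bp over the 7 libraries, compared with 31.0 bp over all sites. The Fli1 and Ets1 genes lie next to each other, and 22 consensus sites belong to both windows. The sites just inside the window edges had mean fold enrichments of 3.97 to 29.0 and differences between the groups of −0.19 to 0.30 (log2), and those just outside had 3.39 to 29.0 and −0.09 to 0.20.

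**Figure D1:**
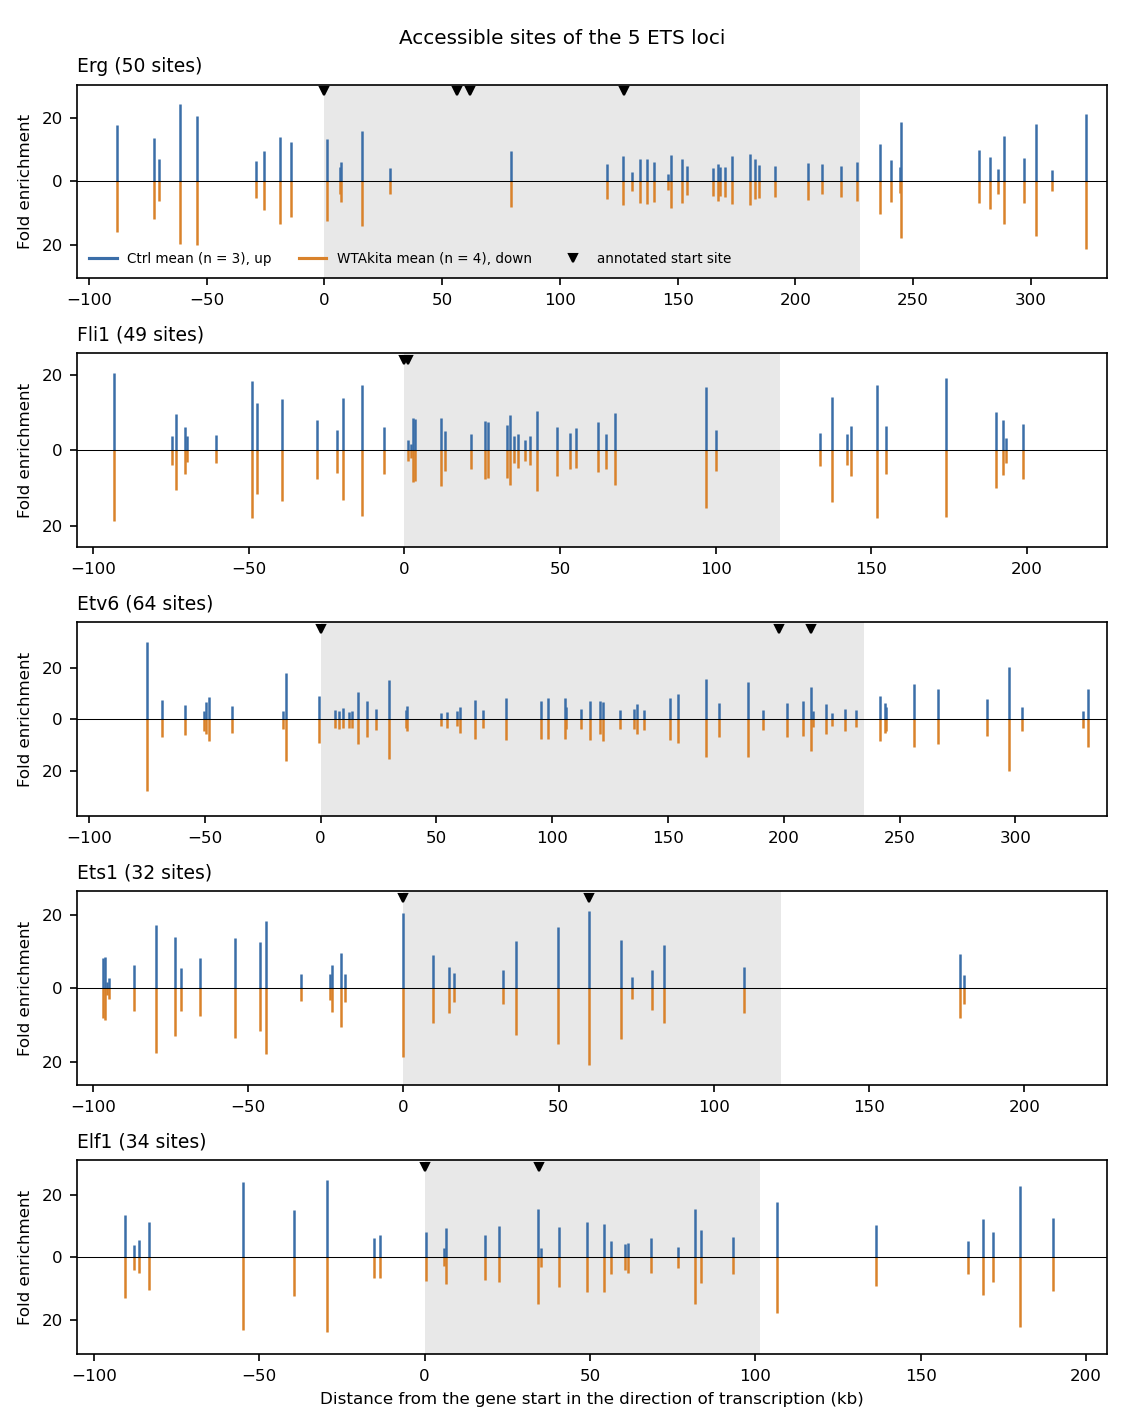
Accessible sites with a summit in all 7 libraries, by distance from the gene start in kb (x axis, negative upstream) and mean fold enrichment (y axis), with Ctrl (n = 3) drawn upward, WTAkita (n = 4) downward, the gene body shaded and annotated start sites as triangles. Each site is drawn at the same place for both groups. In Erg a single site, at 79.3 kb, lies between 27.9 and 119.9 kb.

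Erg (chr16:95359169-95586593, minus strand) had 29 of its 50 sites in the gene body, 9 upstream and 12 downstream. The body divided into an open first part, a nearly closed stretch and a dense last part. From 27.9 kb to 79.3 kb after the gene start no site was present, the widest gap inside any of the 5 genes (51.3 kb), and a further 40.6 kb without a site followed. Both middle groups of start sites, 56228 and 61990 bp into the gene, lay in the first gap, and no library listed a peak within 1000 bp of either. Every library listed a peak within 1000 bp of the first start site and of the fourth, 127245 bp into the gene. The site nearest the first start was at 0.99 kb (chr16:95585173-95586256, intron), with a fold enrichment of 12.1, 15.2 and 12.8 in Ctrl and 10.1, 12.4, 13.3 and 13.3 in WTAkita. This site lay inside the gene and did not reach the start itself. In Ctrl replicate 2 the strongest peak with its summit within 1000 bp of the first start had only 3.17. The site at the fourth start, with its summit 205 bp from it (chr16:95458644-95459835, intron), was lower, at 7.89 ± 0.59 in Ctrl (SD, n = 3) and 7.25 ± 0.53 in WTAkita (SD, n = 4). The 250 bases before each of 3 Erg starts are shown because one of them, the second, is closed in all libraries (RefSeq, GRCm38, minus strand). Capitals mark any of the motifs searched, which are listed with their shares further on.
Erg start 1, chr16:95586594-95586843: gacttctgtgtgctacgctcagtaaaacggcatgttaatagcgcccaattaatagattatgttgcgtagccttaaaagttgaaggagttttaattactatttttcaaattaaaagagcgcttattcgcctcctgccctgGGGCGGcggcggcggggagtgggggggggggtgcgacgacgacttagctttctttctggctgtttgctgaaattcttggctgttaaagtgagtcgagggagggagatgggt
Erg start 2, chr16:95530366-95530615: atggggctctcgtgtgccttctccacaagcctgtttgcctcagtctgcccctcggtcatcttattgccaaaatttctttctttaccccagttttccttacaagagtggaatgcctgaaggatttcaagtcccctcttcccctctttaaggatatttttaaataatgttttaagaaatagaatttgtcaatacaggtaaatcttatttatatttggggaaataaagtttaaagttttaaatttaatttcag
Erg start 4, chr16:95459349-95459598: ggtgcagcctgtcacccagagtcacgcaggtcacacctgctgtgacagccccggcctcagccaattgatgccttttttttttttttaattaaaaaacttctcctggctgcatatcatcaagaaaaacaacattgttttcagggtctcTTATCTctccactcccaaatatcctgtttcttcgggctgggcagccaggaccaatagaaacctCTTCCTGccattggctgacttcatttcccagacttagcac
The bases G and C made up 48.8% of the first, 36.0% of the closed second and 47.2% of the fourth, compared with a median of 52.4% over 32851 promoters, and the CpG counts were 14, 2 and 3. A GC box was present only in the first, and a GATA and an ETS motif only in the fourth.

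The best known Erg enhancer is named for lying 85 kb after a start. From the first start the nearest site was the single one at 79.3 kb (chr16:95507163-95507526, intron). It had a fold enrichment of 6.62, 10.3 and 11.5 in Ctrl and 6.25, 7.41, 11.8 and 6.97 in WTAkita, so that both groups held high and low libraries. From the second start the nearest was a site 83.8 kb after it, 140.1 kb from the first (chr16:95446383-95446784, intron), with 6.29, 5.93 and 6.37 in Ctrl and 6.02, 6.17, 5.86 and 7.18 in WTAkita. No site was sought from the fourth start, 127245 bp into the gene. The site at 211.5 kb from the first start (chr16:95374871-95375356, intron), described below, lies close to 85 kb after the fourth. Whether any of these sites is the named element was not established. The 151 bases centred on the summits at 79.3 and 140.1 kb are shown as candidates for it (mm10, plus strand).
Erg 79.3 kb, chr16:95507236-95507386: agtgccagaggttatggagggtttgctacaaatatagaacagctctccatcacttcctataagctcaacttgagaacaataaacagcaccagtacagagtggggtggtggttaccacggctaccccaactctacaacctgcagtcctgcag
Erg 140.1 kb, chr16:95446461-95446611: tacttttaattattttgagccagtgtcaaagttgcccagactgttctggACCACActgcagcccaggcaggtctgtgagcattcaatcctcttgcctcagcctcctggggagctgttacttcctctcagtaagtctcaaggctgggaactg
The second holds 1 RUNX motif and the first none of the motifs searched. The strongest Erg sites lay outside the gene: at −61.4 kb (chr16:95647814-95648305, between genes), at 323.4 kb in an intron of Kcnj15 and at −54.2 kb, with mean fold enrichments of 21.7, 21.1 and 20.3. The strongest is shown (mm10, plus strand) since it is also among the sites with an unadjusted p under 0.05.
Erg -61.4 kb, chr16:95647921-95648071: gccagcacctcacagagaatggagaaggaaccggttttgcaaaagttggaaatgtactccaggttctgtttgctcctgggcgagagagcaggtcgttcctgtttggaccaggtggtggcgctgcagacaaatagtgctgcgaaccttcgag
It holds 6 CpG and none of the motifs.

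Fli1 (chr9:32422204-32542861, minus strand) had the most crowded gene body, with 24 sites or 19.9 per 100 kb, and 14 sites upstream and 11 downstream. Its own start sites had the lowest fold enrichment of the 5 genes. The site 47 bp from the second start, at 1.31 kb (chr9:32541211-32541777, an annotated untranslated exon), reached 3.11, 2.41 and 2.57 in Ctrl and 2.69, 2.62, 3.10 and 3.19 in WTAkita, above only 3.66% of promoter sites. By the pileup at its summit, 1.99 tags when scaled to a library of 1000000 tags, it ranked above 33.8% of them. The background there was approximated as pileup divided by fold enrichment, leaving out the 1 added to both. It was 0.705 tags on the same scale, higher than at 90.1% of promoter sites. The fold enrichment at this start is therefore a ratio with a high denominator. A stronger pair of sites stood further in, at 2.68 and 3.51 kb, with mean fold enrichments of 8.50 and 8.15.

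The Fli1 enhancer known from stem cells is named for lying 12 kb after the start. The sites nearest that distance were at 11.8 kb from the first start (chr9:32530977-32531308) and at 13.1 kb, which is 11.8 kb from the second start (chr9:32529535-32530231), both in an intron. The first had a fold enrichment of 9.29, 8.21 and 8.54 in Ctrl and 9.17, 9.17, 10.9 and 8.70 in WTAkita. The second had 4.51, 6.21 and 4.54 in Ctrl and 4.67, 5.09, 4.81 and 6.84 in WTAkita. For both the groups overlapped, and the normalized differences were 0.20 ± 0.15 (SE) and 0.13 ± 0.17 on the log2 scale. Both windows are shown for their known neighbourhood (mm10, plus strand), and neither was established as the named element.
Fli1 11.8 kb, chr9:32531028-32531178: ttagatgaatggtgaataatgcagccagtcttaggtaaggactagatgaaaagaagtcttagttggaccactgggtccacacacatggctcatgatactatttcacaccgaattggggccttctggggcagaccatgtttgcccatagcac
Fli1 13.1 kb, chr9:32529711-32529861: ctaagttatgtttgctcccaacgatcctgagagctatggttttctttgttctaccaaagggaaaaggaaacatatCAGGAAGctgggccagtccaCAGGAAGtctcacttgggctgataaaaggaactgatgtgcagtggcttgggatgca
The second holds 2 ETS motifs and the first none. Between them and the gene start lay a narrow site at 11.35 kb (chr9:32531433-32531704, intron) that was called in all 4 WTAkita libraries and in no Ctrl library. Its fold enrichment was 2.44, 2.95, 3.07 and 2.49 in WTAkita, and no Ctrl library listed a summit there. It was the single such site among the 266 of the 5 loci, in either direction. Over all 137340 consensus sites 441 (0.321%) were called in every library of one group and none of the other, close to the share here, and at a peak −log10 p of at least 5 no such site was left in the 5 loci.
The strongest sites of the window were 19.45 at the Ets1 start (−93.2 kb), 18.4 at 173.9 kb and 18.1 at −49.0 kb, the last between the Fli1 and Ets1 genes.

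Etv6 (chr6:134035700-134270158, plus strand) had the most sites, 64, of which 44 lay in the gene body. The strongest site of all 5 loci was in its upstream region, at −74.9 kb (chr6:133960676-133961133, between genes), with a fold enrichment of 26.7, 35.02 and 28.9 in Ctrl and 22.2, 25.3, 32.1 and 32.5 in WTAkita. Within the gene no site exceeded 15.3 and the median was 5.12. The broad site at its start (chr6:134034764-134036333) had a fold enrichment of 9.12 ± 0.64 in Ctrl (SD, n = 3) and 9.05 ± 0.31 in WTAkita (SD, n = 4), and by pileup it stood above 75.5% of promoter sites. A site at 211.8 kb (chr6:134247286-134247719, intron), 107 bp from the start of a noncoding Etv6 transcript, was higher by fold enrichment, with 12.3, 12.4 and 13.4 in Ctrl and 10.7, 12.4, 12.6 and 13.3 in WTAkita. The start of another noncoding transcript, 197900 bp into the gene, had no listed peak within 1000 bp in any library. The 250 bases before the main start (RefSeq, GRCm38, plus strand) and the window of the strongest site (mm10, plus strand) are shown for this contrast between a CpG-rich start and a distant site.
Etv6 start, chr6:134035450-134035699: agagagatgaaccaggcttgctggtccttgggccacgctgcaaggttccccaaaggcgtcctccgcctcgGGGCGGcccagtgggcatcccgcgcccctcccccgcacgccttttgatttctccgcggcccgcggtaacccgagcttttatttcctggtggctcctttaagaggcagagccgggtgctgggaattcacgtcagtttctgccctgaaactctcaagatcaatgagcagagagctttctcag
Etv6 -74.9 kb, chr6:133960743-133960893: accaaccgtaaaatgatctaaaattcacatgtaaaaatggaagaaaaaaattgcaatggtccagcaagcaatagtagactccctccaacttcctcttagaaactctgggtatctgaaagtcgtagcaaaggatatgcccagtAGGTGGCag
The start region has 60.4% G and C, 16 CpG and 1 GC box. The distant window has 40.4% G and C and 2 CpG, and holds 1 CTCF core motif.

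Ets1 (chr9:32636221-32757820, plus strand) had few sites, 32, and the highest fold enrichment at its starts. The coding start is 59801 bp into the gene. Its site (chr9:32695548-32696551) had a fold enrichment of 19.4, 20.2 and 23.6 in Ctrl and 19.9, 19.5, 20.2 and 23.4 in WTAkita, above 90.0% of promoter sites, and above 90.9% by pileup. The site at the upstream start of noncoding transcripts (chr9:32635751-32636410) was nearly as high by fold enrichment. It had 17.2, 22.3 and 22.3 in Ctrl and 13.1, 18.2, 18.8 and 24.3 in WTAkita. By pileup, however, it stood above only 33.9% of promoter sites. Its approximate background, again pileup divided by fold enrichment, was 0.102 scaled tags, above only 8.94% of promoter sites. Downstream of Ets1 only 2 sites were found in 100 kb, and 18 lay upstream, towards and inside Fli1.

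Elf1 (chr14:79481194-79582494, plus strand) lies among other genes, and 11 of its 34 sites were within 1000 bp of a protein-coding start, of which 3 were at its own starts. The site at its first start (chr14:79480643-79482232) also lies within 1000 bp of the start of Wbp4 on the other strand, and had a fold enrichment of 7.91 ± 0.84 in Ctrl (SD, n = 3) and 7.63 ± 1.00 in WTAkita (SD, n = 4). The site at the second start, at 34.4 kb (chr14:79515384-79516026, intron), was higher, with 14.3, 16.3 and 15.8 in Ctrl and 12.3, 15.9, 16.4 and 16.0 in WTAkita. Only WTAkita replicate 1 fell below the other libraries. The strongest sites of the window were at the starts of Kbtbd6 (24.35), Kbtbd7 (23.6) and Cnmd (22.6), not in Elf1 itself. The 250 bases before both Elf1 starts are shown since they differ in base composition (RefSeq, GRCm38, plus strand).
Elf1 first start, chr14:79480944-79481193: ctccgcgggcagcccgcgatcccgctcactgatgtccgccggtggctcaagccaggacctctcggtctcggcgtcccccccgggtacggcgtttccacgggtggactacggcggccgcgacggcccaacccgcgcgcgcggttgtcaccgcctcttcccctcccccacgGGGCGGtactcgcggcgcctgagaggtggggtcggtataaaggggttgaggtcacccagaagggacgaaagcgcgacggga
Elf1 second start, chr14:79515424-79515673: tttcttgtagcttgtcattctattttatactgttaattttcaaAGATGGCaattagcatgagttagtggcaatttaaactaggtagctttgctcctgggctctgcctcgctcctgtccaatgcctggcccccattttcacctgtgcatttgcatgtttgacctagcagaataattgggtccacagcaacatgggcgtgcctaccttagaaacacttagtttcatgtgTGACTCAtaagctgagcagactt
The first has 71.6% G and C and 35 CpG, the second 43.2% and 2, and an AP-1 motif is present only in the second.

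Across the genes' own starts, the order by fold enrichment was Ets1, Elf1, Erg, Etv6 and Fli1, taking the highest start site of each. Ets1 (20.9 on average over 7 libraries) stood above Elf1 (15.3), and Elf1 above Erg (12.7), in every library. Erg and Etv6 (12.4, at the start of a noncoding transcript) did not differ beyond their spread, and Fli1 (2.81) was below all others in every library. At the start of its protein-coding transcripts, Etv6 (9.08) was below Erg in every library. By mean summit pileup, taking the highest start site of each gene on that scale, the order was Ets1 (9.58 scaled tags), Etv6 (6.54), Elf1 (5.66), Erg (3.46, at the fourth start) and Fli1 (1.99). Each pileup is a count at 1 base, the highest summit of the site, and each fold enrichment is a ratio. Neither was corrected for gene length or for the width of the site.

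**Figure D2:**
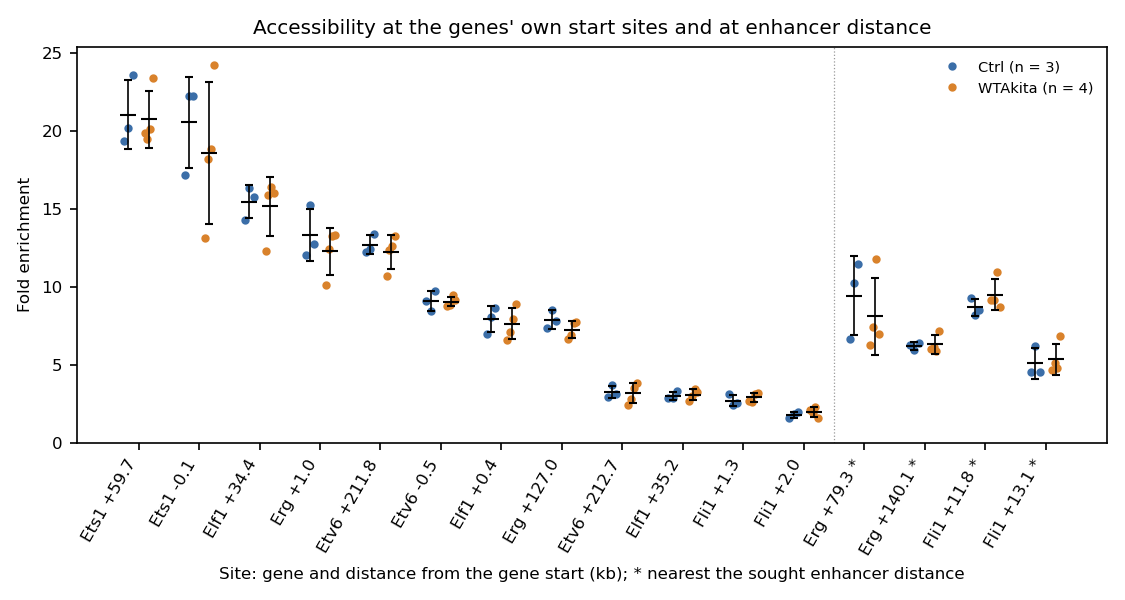
Fold enrichment (y axis) of the sites within 1000 bp of the genes' own start sites (x axis: gene and distance from the gene start in kb). Right of the dotted line are the sites nearest the named enhancer distances from the first and second starts of Erg and Fli1. Each library has a point, and the mean ± SD is in black for Ctrl (n = 3) and WTAkita (n = 4). The groups overlap at every site, and the Fli1 start sites lie at the bottom, at 1.89 and 2.81 on average.

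**Figure D3:**
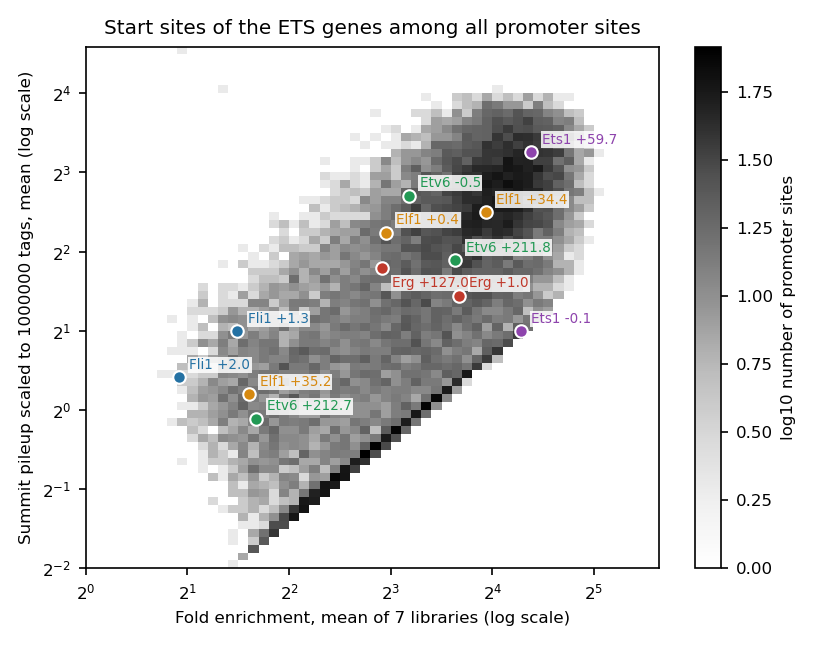
Mean fold enrichment (x axis, log scale) and mean summit pileup scaled to 1000000 tags (y axis, log scale) of all promoter sites in grey (darker for more sites) with the start sites of the 5 genes in colour, labelled by distance from the gene start in kb. The Fli1 start at 1.31 kb and the Ets1 start at −0.129 kb have the same scaled pileup, 1.99 tags, at fold enrichments of 2.81 and 19.45.

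Whether accessibility of these genes differed after a diabetic pregnancy was asked by comparing WTAkita with Ctrl at each site. No site of the 5 loci passed an adjusted p of 0.05 (limma with trend, Benjamini-Hochberg over all 111316 sites, smallest adjusted p 1.00), as for all sites (0% called). At an unadjusted p under 0.05 there were 6 of 211 sites, 3 higher and 3 lower in WTAkita, a share of 2.84% beside 3.87% over all sites. The groups did not overlap at 8 sites (3.79%), 6 of them higher, compared with 4.73% over all sites. The median difference was 0.02 on the log2 scale, with 122 sites above 0 and 89 below, and differences ran from −0.49 to 0.50. The median over all sites was 0.01. Neither share was above the background.

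The 3 higher sites all lay in the Etv6 locus. The site at 122 kb (chr6:134157546-134158037, intron) had a fold enrichment of 4.96, 6.88 and 8.14 in Ctrl and 6.40, 7.75, 10.5 and 9.33 in WTAkita. After normalization every WTAkita library lay above every Ctrl library, narrowly, with a lowest WTAkita value of 2.96 and a highest Ctrl value of 2.95, and the difference was 0.43 ± 0.16 (SE) on the log2 scale (limma, unadjusted p = 0.017, adjusted p = 1.00). The site at −50.1 kb (chr6:133985471-133985883, between genes) had 3.23, 4.23 and 2.56 in Ctrl and 4.11, 4.36, 4.23 and 5.59 in WTAkita, a difference of 0.50 ± 0.18 (limma, unadjusted p = 0.013, adjusted p = 1.00). The site at 12.4 kb (chr6:134048001-134048383, intron) had 2.26, 3.04 and 3.19 in Ctrl and 2.95, 3.34, 3.87 and 3.93 in WTAkita, a difference of 0.36 ± 0.16 (limma, unadjusted p = 0.034, adjusted p = 1.00). As deposited, the groups overlapped at all 3 sites. By pileup scaled by tags the differences were smaller, 0.17, 0.31 and 0.22 in the same order. On that scale the median over all sites was −0.12. Leaving out Ctrl replicate 1 lowered the first to 0.29 (limma, unadjusted p = 0.094) and the third to 0.23 (limma, unadjusted p = 0.19). Leaving out Ctrl replicate 3 lowered the second to 0.34 (limma, unadjusted p = 0.097). With WTAkita replicates 1 and 2 and Ctrl replicate 1 left out, the 3 sites were at 0.36, 0.52 and 0.30 in the same order (limma, unadjusted p = 0.071, 0.084 and 0.14). Their windows are shown because they carried the largest differences of the loci in this direction (mm10, plus strand).
Etv6 122 kb, chr6:134157598-134157748: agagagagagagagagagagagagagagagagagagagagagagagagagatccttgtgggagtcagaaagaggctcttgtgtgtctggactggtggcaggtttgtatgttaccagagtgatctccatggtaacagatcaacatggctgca
Etv6 -50.1 kb, chr6:133985499-133985649: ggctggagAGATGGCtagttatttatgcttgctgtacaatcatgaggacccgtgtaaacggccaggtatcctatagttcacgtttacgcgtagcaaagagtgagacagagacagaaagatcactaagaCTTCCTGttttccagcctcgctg
Etv6 12.4 kb, chr6:134048054-134048204: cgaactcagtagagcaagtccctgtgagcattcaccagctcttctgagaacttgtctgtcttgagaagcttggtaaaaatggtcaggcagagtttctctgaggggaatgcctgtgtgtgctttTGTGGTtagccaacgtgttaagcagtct
The first window opens with an AG repeat of 51 bases, and the part of this repeat in the difference was not tested. The second holds 1 ETS motif and 1 CTCF core, and the third 1 RUNX motif.

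The 3 lower sites lay at Erg and upstream of Elf1. The Erg site at 211.5 kb (chr16:95374871-95375356, intron) had a fold enrichment of 4.76, 6.0 and 5.44 in Ctrl and 2.62, 3.04, 5.42 and 4.57 in WTAkita. WTAkita replicates 1 and 2 were the low ones, and the difference was −0.49 ± 0.19 (limma, unadjusted p = 0.024, adjusted p = 1.00). With these and Ctrl replicate 1 left out, it was −0.24 (limma, unadjusted p = 0.27). By pileup scaled by tags the difference was larger, −0.58 (limma, unadjusted p = 0.043), where the median over all sites was −0.12. Its scaled summit pileup was 0.448 tags on average. The strongest Erg site, at −61.4 kb, had 22.5, 29.3 and 21.2 in Ctrl and 14.5, 19.4, 24.02 and 20.9 in WTAkita. The groups overlapped, and the difference was −0.24 ± 0.11 (limma, unadjusted p = 0.042, adjusted p = 1.00). It was −0.13 without Ctrl replicate 2 (limma, unadjusted p = 0.25) and −0.35 by pileup scaled by tags (limma, unadjusted p = 0.15). The site at −39.6 kb from Elf1 (chr14:79441337-79441858, between genes) had 14.5, 16.8 and 14.4 in Ctrl and 9.68, 11.02, 12.3 and 16.6 in WTAkita, with a difference of −0.25 ± 0.11 (limma, unadjusted p = 0.041, adjusted p = 1.00). There the single high WTAkita library, replicate 4, lay inside the Ctrl range, and the difference was −0.16 with WTAkita replicates 1 and 2 and Ctrl replicate 1 left out (limma, unadjusted p = 0.31). The window of the Erg site at 211.5 kb is shown as the largest difference in this direction (mm10, plus strand).
Erg 211.5 kb, chr16:95375022-95375172: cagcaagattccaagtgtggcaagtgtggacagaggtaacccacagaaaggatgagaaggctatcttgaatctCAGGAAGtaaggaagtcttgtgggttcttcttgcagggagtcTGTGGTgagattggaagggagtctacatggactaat
It holds 1 ETS and 1 RUNX motif.

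**Figure D4:**
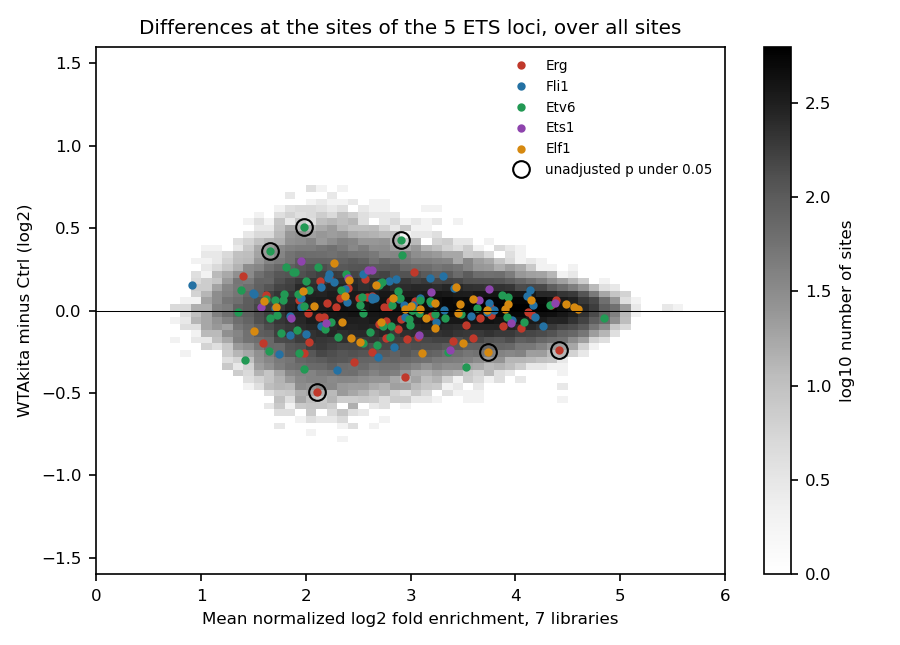
Difference between WTAkita and Ctrl (y axis, log2) against the mean normalized log2 fold enrichment (x axis) for all 111316 sites in grey (darker for more sites) and the 211 sites of the 5 loci in colour, drawn once where 2 loci share them. The coloured points lie within the grey cloud, from −0.49 to 0.50, and the 6 circled sites have an unadjusted p under 0.05.

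The mean over a whole locus passed the test for none of the 5 genes. The mean over the sites of a locus was lower in WTAkita by −0.04 ± 0.03 (SE, log2) for Erg, and higher by 0.04 ± 0.04 for Fli1, 0.02 ± 0.03 for Etv6, 0.04 ± 0.03 for Ets1 and 0.0017 ± 0.03 for Elf1. The adjusted p was 1.00 for each (limma, Benjamini-Hochberg over 18352 loci), and none of the 5 had an unadjusted p under 0.05, which 3.26% of all loci had. For Fli1, WTAkita replicate 1 was at 2.88 and the other 3 at 2.75 to 2.81, with Ctrl at 2.75 to 2.77. The Fli1 difference was 0.0086 without WTAkita replicate 1, and −0.01 when WTAkita replicates 1 and 2 and Ctrl replicate 1 were left out.

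The numbers of peaks in a locus overlapped between the groups. Erg held 68, 73 and 70 peaks in Ctrl and 63, 70, 73 and 68 in WTAkita, with p = 0.80 (two-sided exact permutation test). Fli1 held 65, 68 and 64 against 60, 65, 66 and 63 (exact p = 0.40), and Etv6 91, 96 and 84 against 88, 84, 91 and 88 (exact p = 0.57). Ets1 held 47, 46 and 41 against 39, 41, 42 and 42 (exact p = 0.23), and Elf1 42, 41 and 38 against 39, 43, 44 and 46 (exact p = 0.29). The length covered by peaks gave exact p-values from 0.11 for Ets1 to 0.80 for Elf1. With 3 and 4 libraries this test cannot go below 0.0571, so it could not have passed 0.05, and the 5 p-values are unadjusted.

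**Figure D5:**
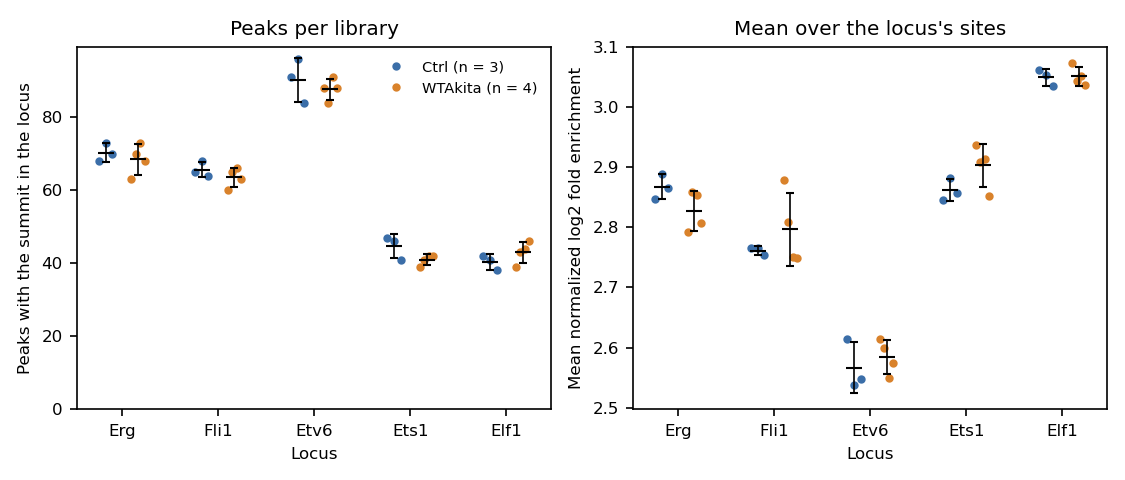
Peaks per library (left) and mean normalized log2 fold enrichment over the sites of a locus (right, axis not from 0) for the 5 loci, with a point per library and the mean ± SD in black for Ctrl (n = 3) and WTAkita (n = 4). The groups overlap in all panels, and at Fli1 the WTAkita means run from 2.75 to 2.88.

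Among the other ETS family genes, a promoter site in all 7 libraries was present for 19 of 21, all but Etv2 and Spib, and for all 5 heptad partners. The family's strongest promoter sites, the highest of each gene, had a median fold enrichment of 13.1, from 2.94 at Fev to 20.95 at Elk1. The median over all promoter sites was 10.9. That value includes weaker sites of the same genes, so it cannot show whether the family stands higher. The heptad partners' strongest promoter sites were lower than the family's, with a median of 7.05, from 3.87 at Gata2 to 9.81 at Lmo2. Spi1, which encodes the myeloid factor PU.1, had 12.4, and Gabpa, a broadly used ETS factor, 16.4. In WTAkita 13 of the 19 family genes were above Ctrl and 6 below, with a median of 0.02 (log2), beside 62.4% of all 21902 promoter sites above and a median of 0.03. None of the 24 genes had an unadjusted p under 0.05, which 1.89% of all promoter sites had, nor an adjusted p under 0.05 (limma, 0 of all promoter sites). Farthest above 0 were Fev (0.29 ± 0.19 SE) and Etv5 (0.13 ± 0.10), and farthest below were Ehf (−0.24 ± 0.23) and Spdef (−0.21 ± 0.12). Of the heptad partners, Tal1, Lyl1, Lmo2 and Runx1 were at 0.01 to 0.09 and Gata2 at −0.16 ± 0.17.

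Short motifs of known regulators were counted in the 151 bases around each summit, on both strands. For ETS factors the letters searched were CCGGAAG, and as a more relaxed form CAGGAAG. For GATA factors the search used AGATAA. For RUNX factors it used TGTGGT. E-boxes, bound by factors such as Tal1 and Lyl1, were searched as CAGCTG, and as CATCTG. The AP-1 motif was TGANTCA, with any base at N. The GC box was GGGCGG. For the insulator protein CTCF the core was searched as AGGGGGC, or with other middle bases as AGGTGGC, or as AGATGGC, of which the last can overlap the reverse of an E-box. Of the 190 sites of the loci away from start sites, 34 (17.9%) held CAGGAAG, beside 15.5% of all such sites, and 2 (1.05%) CCGGAAG, beside 1.56%. The RUNX motif was present in 38 of the 190 and in 21.6% of all such sites, GATA in 6.84% against 6.40%, AP-1 in 5.26% against 6.96% and a CTCF core in 15.8% against 16.2%. E-boxes were present in 8.95% (CAGCTG) and 11.6% (CATCTG), against 11.7% and 13.7%. The GC box was present in 2.11% against 6.32%. Of all 211 sites, 27 (12.8%) held motifs of at least 2 of the ETS, GATA, RUNX and E-box classes, and 3 (1.42%) of at least 3, beside 12.2% and 1.27% of all sites. In the promoters of RefSeq shown above, taken as 250 bases, CAGGAAG was present in 10.8%, AGATAA in 9.99%, TGANTCA in 6.75% and GGGCGG in 32.7% of all 32851. These shares are descriptions, and a match is not a bound site.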

How the data were processed

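Peak lists of 3 Ctrl and 4 WTAkita ATAC-Seq libraries were analysed. Before deposit, the authors used Trim Galore 0.4.2 with cutadapt 1.9.1 for trimming, Bowtie2 2.3.4.1 for alignment against mm10 and MACS2 (version 2.1.4 according to the processing notes) for peaks of each library, after removal of duplicates, at p 0.01, with 150 bp centred on the cut site (shift 75 bp) and no control. Column values deposited as fold enrichment are ratios, pileup at the summit over the background expected for that library with 1 added to both, so a dense region has lower values. The −log10 p and q columns, deposited by the authors, compare the same pileup and background, and the deposited score derives from the p. Pileups were solved from fold enrichment and p and came out whole, within 0.02, for at least 99.996% of lines per library. Tag numbers are estimates with an effective genome of 1870000000 bp. The median pileup of a list was 39.0 to 53.0 tags, and intervals of such counts would cover counting error only.

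Bases covered in 75% or more of a group's libraries, over 100 bp or more, were joined between groups at 50% overlap into sites. A site took the highest fold enrichment among the summits inside it, and belonged to a locus by its midpoint. It counted as called in a library if peaks covered at least 50% of it. For sites with a summit in all 7 libraries, log2 values were quantile-normalized and fitted with limma 3.58.1 with trend (R 4.3.3), Benjamini-Hochberg adjusted over all sites. The script was tested on simulated data. Library values correlated at 0.923 to 0.956, and no library was counted as a repeat of another. Means over loci with at least 5 sites were fitted likewise over all protein-coding genes. Peaks per locus were compared by two-sided exact permutation tests. Genes and start sites came from GENCODE vM21, promoter sequences from RefSeq (GRCm38; 6 starts of 3 genes), and windows from the GRCm38 genome. Starts within 500 bp were grouped. Named sites were, for each gene, the strongest within 1000 bp of an own start, the 3 strongest, up to 3 of lowest unadjusted p under 0.05, those nearest the known enhancer distances and any called in one group alone. Of other ETS and heptad genes the 2 farthest above and below 0 were named. Further sites at own starts, the Fli1 pair at 2.68 and 3.51 kb and the motifs were chosen after values were seen. The members and lists were chosen with earlier results of these data known. Python 3.11.15, numpy 2.4.6, pandas 2.3.3, scipy 1.17.1 and pysam 0.24.0 were used. Other assays of the study were not used here.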

Additional observations from a re-analysis of the deposited data

Results flagged for a closer look

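Among 41 groups of 4 WTAkita values tested for a library that stands apart (peaks, covered length and mean of each locus, and named sites), 2 had one, and chance flags about 1 in 20 such groups. The length covered by Erg peaks was 29700 bp in WTAkita replicate 1, beside 32810 to 33320 bp in the other 3, and this library also had the lowest median fold enrichment of all peak lists. At the Fli1 start (1.31 kb) the normalized log2 fold enrichment was 1.43 in WTAkita replicate 2, beside 1.57 to 1.58 in the other 3, which is within the Ctrl range of 1.21 to 1.71.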

How the results depend on the processing

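The 5 loci held no site at an adjusted p under 0.05 under any of the 16 alternatives. The number at an unadjusted p under 0.05, 6 in the analysis as reported, was 1 with pileups scaled by tags, 10 with limma without trend, 12 with the replicate block and 3 without Ctrl replicate 2, with a range of 3 to 8 over the libraries left out in turn. The 6 sites kept their direction under each alternative that gave them a value, which 3 of them lacked at −log10 p of at least 5 or at a mean fold enrichment of at least 4, but each had an unadjusted p above 0.05 without at least 1 library. Whether the replicate numbers pair the libraries was not tested. The deviations of same-numbered libraries from their group means correlated at 0.207, 0.0250 and 0.0611. With the block, which leaves out WTAkita replicate 4, 6866 of all sites had an unadjusted p under 0.05 and 3 an adjusted p under 0.05 (limma). The same libraries without the block gave 5007 and 7, and all 7 libraries gave 4313 and 0. With the block the unadjusted p was 0.070 at Erg −61.4 kb, 0.060 at Etv6 12.4 kb, 0.034 at Fli1 11.8 kb and 0.049 at the Ets1 start (−0.129 kb). No adjusted p of the 5 loci passed 0.05. The 1 site called in WTAkita only was 0 at a peak −log10 p of at least 5.

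Scaling by tags moved the median of all sites by −0.12 (log2). Locus means there were −0.10 for Fli1, −0.12 for Etv6, −0.09 for Ets1 and −0.11 for Elf1, each near that shift. The Elf1 mean was −0.0093 with touching peaks, −0.0097 with peaks sharing 50% of the shorter length, −0.00030 at −log10 p of at least 5 and −0.00050 at a mean fold enrichment of at least 4. Leaving out 1 library gave −0.0056 to 0.0076 for Elf1, and Fli1 was −0.0085 when WTAkita replicates 1 and 2 and Ctrl replicate 1, of lowest median fold enrichment, were left out together, an alternative chosen after seeing the data. The difference in peak number was 0.167 for Fli1 and 0 for Elf1 at −log10 p of at least 5. It ran from −3.33 to 0 for Erg and from −5.75 to 0.25 for Etv6 with 1 library left out, Erg reaching 0 without WTAkita replicate 1 and Etv6 0.25 without Ctrl replicate 2.

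Named sites with differences near 0 changed sign. With scaling by tags these were, at Elf1, −0.16 (−54.8 kb), −0.16 (−29.5 kb), −0.13 (34.4 kb) and −0.11 (180.1 kb), at Erg −0.10 (323.4 kb), −0.13 (140.1 kb) and −0.14 (−54.2 kb), at Etv6 −0.039 (211.8 kb) and −0.13 (297.4 kb), at Fli1 −0.026 (1.31 kb) and −0.065 (−49.0 kb) and at Ets1 −0.17 (59.7 kb). Without these 3 libraries they were −0.063 (−54.8 kb) and −0.013 (34.4 kb) at Elf1, 0.011 (−74.9 kb) and −0.022 (211.8 kb) at Etv6 and −0.029 (59.7 kb) at Ets1. With 1 library left out the ranges that crossed 0 were −0.0012 to 0.16 (Erg 140.1 kb), −0.10 to 0.0069 (Erg 0.988 kb), −0.073 to 0.12 (Erg −54.24 kb), −0.14 to 0.067 (Fli1 173.9 kb), −0.013 to 0.086 (Fli1 −49.02 kb), −0.089 to 0.027 (Etv6 −74.88 kb), −0.044 to 0.059 (Etv6 211.8 kb), −0.023 to 0.094 (Etv6 297.4 kb), −0.022 to 0.11 (Ets1 59.72 kb), −0.022 to 0.068 (Elf1 −54.78 kb), −0.066 to 0.049 (Elf1 −29.45 kb) and −0.017 to 0.069 (Elf1 34.38 kb). None of these passed an adjusted p of 0.05, and the cause of the changes was not tested. The median over the other ETS and heptad promoters, 0.02, ran from 0.01 to 0.06. Differences under about 2 SE, 0.15 to 0.40 for most sites, could not reach an unadjusted p of 0.05 with 3 and 4 libraries (limma). After adjustment over all sites the limit was higher, and the highest difference of the 5 loci, 0.50, did not pass.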
